A study of Homo sapiens with 8 samples.

Results

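The genes described here are 44 monocyte maturation and surface receptor genes, among 63140 genes counted in 8 RNA libraries from human acute myeloid leukaemia cells. They were taken as a list of monocyte surface molecules, pattern recognition receptors and oxidase subunits, chosen with earlier results of these data known. Shares of called genes in the list are therefore descriptions and not tests of the list. Each was found by its symbol, matched from the Ensembl identifier of the count table, and each had 1 record. The RNA came from ChIRP, a pull-down in which biotinylated probes are hybridised to fixed, sonicated lysate. The RNA held on the streptavidin beads is then sequenced. The labels do not name the RNA the probes target or an input library, so every value below is an amount of RNA in a pull-down.

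MOLM13 and OCI-AML4, the lines named in the labels, are established leukaemia lines. All cells were nucleofected and were collected on day 3 after editing. In the KO groups a complex of Cas9 and guide RNA, which cuts DNA, was delivered. In the CBE groups a cytosine base editor, which changes C to T and leaves the double strand uncut, was delivered with a guide RNA. HOTSCRAMBL is a long non-coding RNA, and AAVS1 is the control site of this series for both editors. The 4 groups were AAVS1 KO (genotype WT), HOTSCRAMBL KO, AAVS1 CBE (genotype WT) and HOTSCRAMBL CBE. Each group held 2 libraries, replicate 1 labelled MOLM13 and replicate 2 labelled OCI-AML4, and values of a group are given in that order. The labels do not say whether the cells were clones or mixed populations, and no record of the table carries the name HOTSCRAMBL, so the edit itself could not be checked. Since a group holds 1 library under each line label, p-values measure the spread between single libraries. Between the 2 line labels, 119 of 24057 genes tested (0.495%) had an edgeR adjusted p under 0.05. Differences between replicates 1 and 2 correlated across the groups with r of only 0.00851 to 0.0245. Values by line are therefore given by label only. Whether the 2 libraries of a group came from different lines was not tested otherwise.

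Monocytes are blood phagocytes that arise from myeloid progenitors and recognise microbes, antibody-coated particles and damaged cells through surface receptors. During maturation they gain CD14, integrins of the beta2 family, Fc receptors, and the membrane-bound NADPH oxidase that makes superoxide. Many of these receptors signal through adaptors with ITAM motifs, which recruit the kinase SYK, and are held back by receptors with ITIM motifs, which recruit phosphatases such as PTPN6. PU.1, encoded by SPI1, is a transcription factor of the myeloid lineage, and many but not all of its binding sites contain GAGGAA. Leukaemias with monocytic features express part of this programme.

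The promoters of 5 of the genes that were higher with HOTSCRAMBL KO are shown. These genes were chosen by that result. The sequences are RefSeq's, on build GRCh38.p14, from 250 bases before to 50 after each gene's start, printed 5′ to 3′ on the gene's strand. Capitals mark GAGGAA or its reverse complement TTCCTC, the only motif searched.
AIF1 (chr6:31614984-31615283, + strand): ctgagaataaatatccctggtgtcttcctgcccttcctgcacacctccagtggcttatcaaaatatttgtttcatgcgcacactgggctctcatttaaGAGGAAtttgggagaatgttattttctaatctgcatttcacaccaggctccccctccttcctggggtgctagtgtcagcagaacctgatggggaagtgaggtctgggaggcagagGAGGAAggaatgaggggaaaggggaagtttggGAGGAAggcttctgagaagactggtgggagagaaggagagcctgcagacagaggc
CYBB (chrX:37779809-37780108, + strand): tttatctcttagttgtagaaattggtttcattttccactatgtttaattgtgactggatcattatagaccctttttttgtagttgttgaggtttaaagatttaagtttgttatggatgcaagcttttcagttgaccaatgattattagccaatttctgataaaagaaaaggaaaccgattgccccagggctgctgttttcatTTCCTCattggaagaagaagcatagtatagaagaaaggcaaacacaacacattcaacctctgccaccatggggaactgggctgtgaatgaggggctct
MNDA (chr1:158831101-158831400, + strand): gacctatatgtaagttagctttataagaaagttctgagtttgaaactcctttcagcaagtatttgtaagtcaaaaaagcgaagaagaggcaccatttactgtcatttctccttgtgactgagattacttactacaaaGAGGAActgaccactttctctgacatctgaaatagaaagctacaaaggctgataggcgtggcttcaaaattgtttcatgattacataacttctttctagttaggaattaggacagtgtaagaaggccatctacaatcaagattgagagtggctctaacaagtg
MS4A6A (chr11:60184617-60184916, - strand): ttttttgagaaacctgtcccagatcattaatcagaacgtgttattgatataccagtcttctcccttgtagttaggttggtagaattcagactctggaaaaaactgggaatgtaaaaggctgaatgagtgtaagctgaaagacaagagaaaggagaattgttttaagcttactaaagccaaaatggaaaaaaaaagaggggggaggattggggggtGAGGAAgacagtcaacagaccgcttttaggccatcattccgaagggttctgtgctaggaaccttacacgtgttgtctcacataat
TLR2 (chr4:153684030-153684329, + strand): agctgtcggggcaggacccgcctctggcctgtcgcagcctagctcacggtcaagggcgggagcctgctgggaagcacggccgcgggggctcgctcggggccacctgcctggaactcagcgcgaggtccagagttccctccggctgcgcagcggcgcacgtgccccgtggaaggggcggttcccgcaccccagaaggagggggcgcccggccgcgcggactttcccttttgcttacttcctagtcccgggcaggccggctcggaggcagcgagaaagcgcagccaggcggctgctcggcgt
AIF1 held 3 matches, all on its own strand. CYBB, MNDA and MS4A6A held 1 each, and TLR2 held 0. Of the 35 genes of the list with a promoter entry, 23 (65.7%) held a match on either strand, beside 9781 of 35116 (27.9%) of all promoters in the same table. A match is a string of letters, and neither a match nor its absence says anything of binding in these cells. SPI1 RNA had a log2 fold change of −0.09 with KO and 0.04 with CBE (edgeR adjusted p = 0.735 and 0.901). A part of PU.1 in the results below was not tested.

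Total counts were 20548300 to 37970163 per library. The share of counts from mitochondrially encoded genes was 6.77% to 7.23% in the 4 AAVS1 libraries and 10.2% to 11.9% in the 4 HOTSCRAMBL libraries. For cytosolic ribosomal protein genes it was 1.32% to 1.60% and 3.20% to 4.46%. These shares moved with HOTSCRAMBL editing under both editors, and so with every HOTSCRAMBL comparison below. With those genes removed before scaling, a setting chosen after seeing the data, 8 genes of the list passed the threshold with KO and 9 with CBE, against 8 and 8 with them. Of all genes tested, 8.15% and 8.42% passed in that setting, against 8.76% and 8.83% with them.

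Levels per length covered a wide range. As means over the 8 libraries in RPKM (reads by exon length and library size, after TMM scaling), 12 genes lay at 10 or more, 16 between 1 and 10, and 16 below 1. ITGAL, the alpha chain of the lymphocyte integrin LFA-1, was highest at 140 RPKM. NCF4, a cytosolic oxidase subunit, followed at 126 RPKM, and ITGB2, the shared beta2 integrin chain, at 38.0 RPKM. AIF1, an actin-binding calcium protein of myeloid cells, stood at 33.0 RPKM, and CD33, a sialic acid-binding inhibitory receptor of myeloid cells, at 28.3 RPKM. At the other end were 4 classical markers of mature monocytes. CD14, the lipopolysaccharide co-receptor, stood at 0.366 RPKM, VCAN, a matrix proteoglycan, at 0.0716, FCN1, a secreted lectin, at 0.0417, and CD163, the haemoglobin scavenger receptor, at 0.00759. CD14 reached 1.34 RPKM in HOTSCRAMBL KO, against 0.119 in AAVS1 KO and 0 in both CBE groups. Other genes of the list that monocytes express were well above these 4, with TYROBP at 24.3 RPKM, LILRB4 at 14.3, MS4A6A at 7.76, CYBB at 6.47 and MNDA at 4.53.

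**Figure D1:**
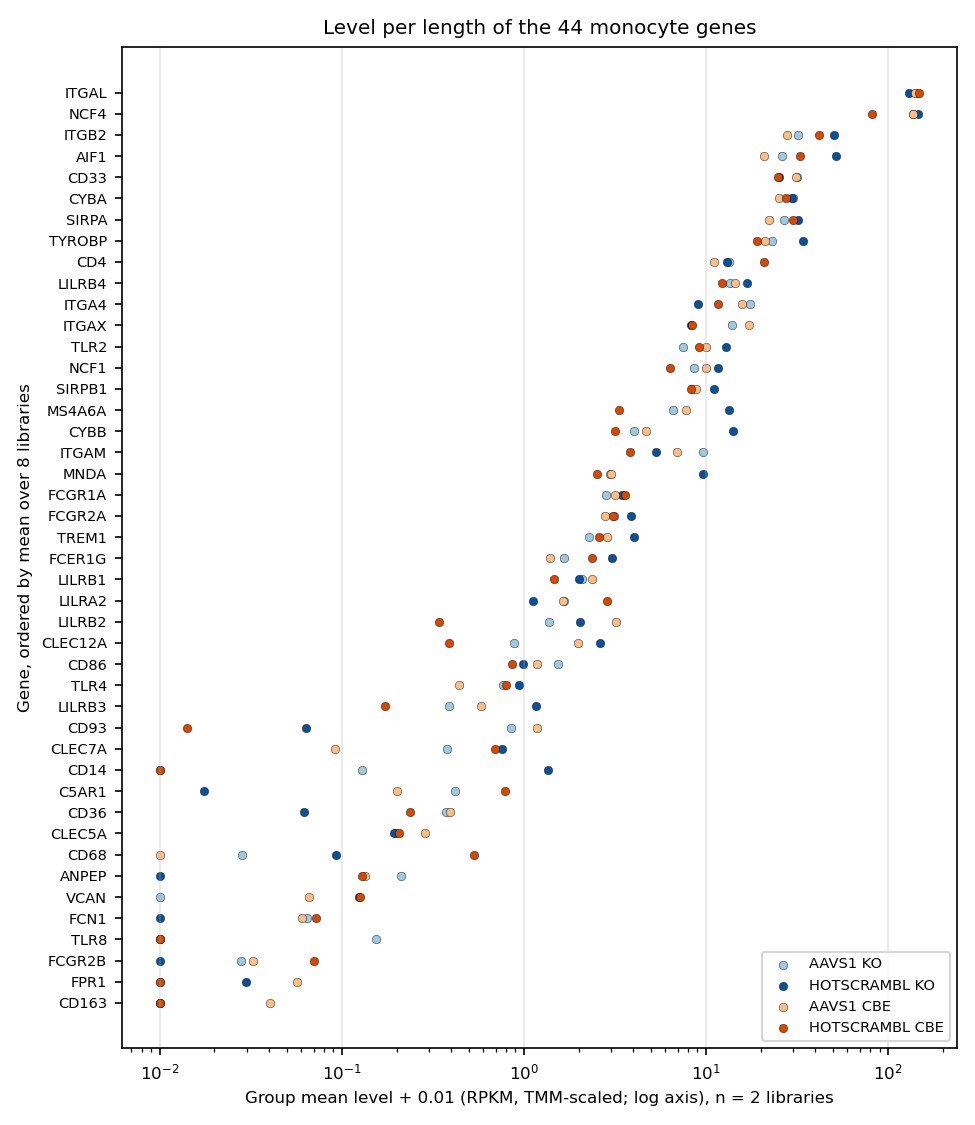
Level of each of the 44 genes per exon length (horizontal log axis, group mean RPKM + 0.01, n = 2 libraries per group), ordered by the mean over the 8 libraries. Points are the 4 groups. ITGAL and NCF4 are highest, at 140 and 126 RPKM, and CD163, FPR1, FCGR2B and TLR8 are lowest.

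Of the 44 genes, 40 passed the filter on low counts and were tested with edgeR's quasi-likelihood test, with p-values adjusted over all 24057 genes tested and a threshold of 0.05. TLR8, CD163, FPR1 and FCGR2B were not tested. With HOTSCRAMBL KO, 6 genes were higher than in AAVS1 KO (AIF1, CYBB, ITGB2, MNDA, MS4A6A and TLR2) and 2 were lower (ITGA4 and ITGAX). Together they were 20% of the 40, beside 8.76% of all genes tested (4.51% higher and 4.25% lower). With HOTSCRAMBL CBE, 2 genes were higher than in AAVS1 CBE (CD4 and ITGB2) and 6 were lower (CD93, CLEC12A, ITGAX, LILRB2, MS4A6A and NCF4). These were again 20% of the 40, beside 8.83% of all genes (4.56% higher and 4.27% lower). In a bulk pull-down with no named input, changes in cells of a type, in RNA per cell and in RNA recovered cannot be told apart.

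Among all genes of similar level (mean of 2.62 to 68.7 CPM, counts scaled to library size with TMM), 8.47% were called with KO and 8.58% with CBE, and 5 of the 20 listed genes in that range were called with each. The median log2 fold change of the 40 genes was 0.30 with KO, beside −0.01 over all genes, and −0.12 with CBE, beside −0.02. Without TMM scaling the median of all genes moved to −0.17 with KO and −0.15 with CBE. The calls in the list were then 5 higher and 6 lower with KO and 2 higher and 9 lower with CBE. Over all genes, 10.5% were called in that setting with KO (840 of 2535 higher) and 9.97% with CBE (782 of 2398 higher). Fitted to the 4 libraries of each contrast alone, 3 genes passed with KO and 4 with CBE, beside 3.76% and 3.16% of all genes tested. That fit ended the calls of AIF1, ITGAX, MNDA, MS4A6A and TLR2 with KO (edgeR adjusted p = 0.0682, 0.0877, 0.127, 0.067 and 0.176). With CBE it ended those of CD93, CLEC12A, ITGB2 and LILRB2 (edgeR adjusted p = 0.0558, 0.115, 0.0567 and 0.0548). The count with KO was 3 without HOTSCRAMBL KO replicate 1, beside 956 of 27353 (3.5%) of all genes. It was 4 without AAVS1 KO replicate 1 or 2, beside 2.46% and 3.14%. With CBE it was 3 without HOTSCRAMBL CBE replicate 1, beside 2.14%, and 4 without AAVS1 CBE replicate 1 or 2, beside 2.51% and 3.37%.

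**Figure D2:**
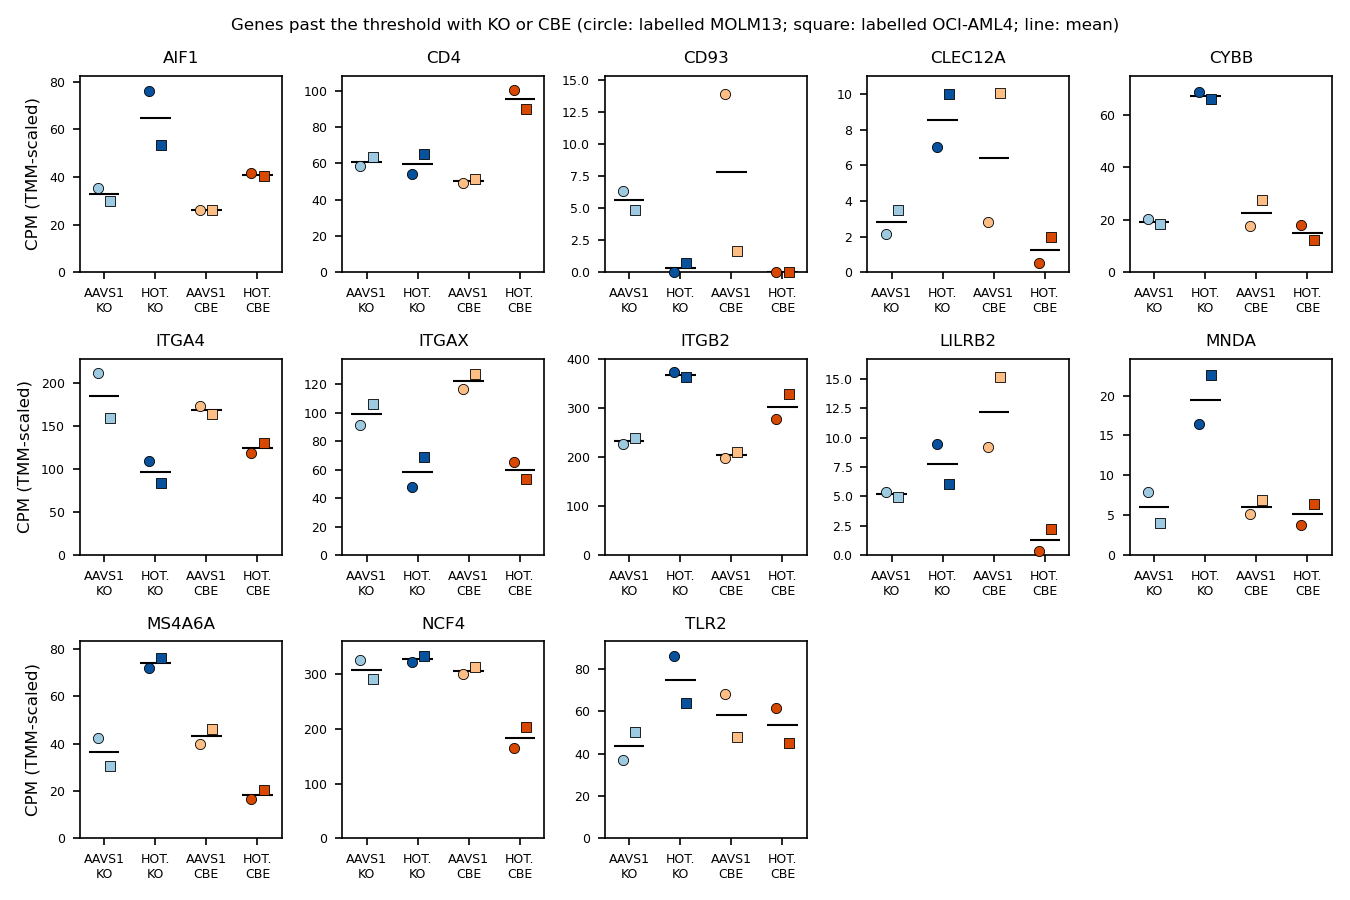
Level of the 13 genes past the threshold with KO or CBE in each library (vertical axis, CPM after TMM scaling, from 0). Circles are libraries labelled MOLM13, squares those labelled OCI-AML4 and lines the mean of 2. CYBB stands at 66.0 and 68.7 CPM in HOTSCRAMBL KO and at 12.3 to 27.5 in the other 6 libraries.

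Integrins are adhesion receptors made of an alpha and a beta chain. The beta2 chain ITGB2 pairs with ITGAL (LFA-1), ITGAM (the complement receptor Mac-1) and ITGAX (CD11c), while ITGA4 pairs with beta1 or beta7 chains and binds VCAM-1. ITGB2 RNA rose with both edits, and RNA of its partner ITGAX fell with both. ITGB2 (chr21:44885953-44931989) stood at 228 and 239 CPM in AAVS1 KO against 374 and 364 in HOTSCRAMBL KO. In AAVS1 CBE it was at 198 and 212 CPM and in HOTSCRAMBL CBE at 278 and 330. Every HOTSCRAMBL library lay above every AAVS1 library. An antisense gene shares 4.15% of its exon bases. Its log2 fold change was 0.66 with KO (SE 0.114, edgeR adjusted p = 0.000231) and 0.56 with CBE (SE 0.113, edgeR adjusted p = 0.00121). The difference between editors was 0.10 (95% interval −0.23 to 0.42, edgeR adjusted p = 0.866).

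ITGAX (chr16:31355134-31382999) stood at 91.1 and 106 CPM in AAVS1 KO against 47.9 and 69.1 in HOTSCRAMBL KO. It was at 117 and 127 CPM in AAVS1 CBE against 65.6 and 53.3 in HOTSCRAMBL CBE. All 4 HOTSCRAMBL libraries were below all 4 AAVS1 libraries. It fell by 0.75 on the log2 scale with KO (SE 0.193, edgeR adjusted p = 0.0125) and by 1.01 with CBE (SE 0.172, edgeR adjusted p = 0.000201). Its neighbour ITGAM, 22.2 kb away on chromosome 16, passed neither threshold. ITGAM stood at 58.8 and 51.4 CPM in AAVS1 KO against 17.3 and 43.2 in HOTSCRAMBL KO, and 47.8 and 30.7 in AAVS1 CBE against 17.7 and 25.8 in HOTSCRAMBL CBE. Its edgeR adjusted p was 0.100 with KO and 0.0751 with CBE. In both contrasts the 2 HOTSCRAMBL libraries were below the 2 AAVS1 libraries.

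ITGA4 (chr2:181457202-181538940) stood at 211 and 159 CPM in AAVS1 KO against 109 and 84.3 in HOTSCRAMBL KO. It fell by 0.94 on the log2 scale (SE 0.156, edgeR adjusted p = 0.000144). With CBE the values were 173 and 165 CPM in the control and 119 and 131 in HOTSCRAMBL CBE, which did not pass (edgeR adjusted p = 0.0542). CERKL on the opposite strand shares 26.4% of the exon bases of ITGA4, and reads over both genes were left out because strand was not used. ITGAL, the most abundant gene of the list per length, passed with neither editor. It ranged from 1245 to 1476 CPM over the 8 libraries, with edgeR adjusted p = 0.398 with KO and 0.638 with CBE.

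The calls of ITGB2 with KO and ITGAX with CBE held in every alternative run. ITGB2 with CBE lost its call without AAVS1 CBE replicate 1 or 2 or HOTSCRAMBL CBE replicate 2 (edgeR adjusted p = 0.0645, 0.0521 and 0.0716). ITGAX with KO lost it without AAVS1 KO replicate 1 or 2 or HOTSCRAMBL KO replicate 1 (edgeR adjusted p = 0.139, 0.235 and 0.286). ITGA4 with KO lost it without AAVS1 KO replicate 1 (edgeR adjusted p = 0.068).

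The phagocyte NADPH oxidase has a membrane core of CYBB (gp91phox) and CYBA (p22phox) and cytosolic subunits that include NCF1 (p47phox) and NCF4 (p40phox). Of these 4 subunits, the catalytic subunit CYBB alone passed the threshold with KO, and NCF4 alone with CBE. CYBB (chrX:37780018-37813461) stood at 20.2 and 18.5 CPM in AAVS1 KO against 68.7 and 66.0 in HOTSCRAMBL KO. It was at 17.5 and 27.5 CPM in AAVS1 CBE against 17.9 and 12.3 in HOTSCRAMBL CBE. The pair of HOTSCRAMBL KO libraries was thus far above the other 6. CYBB rose by 1.80 on the log2 scale with KO (SE 0.274, edgeR adjusted p = 4.36e-05), the largest fold among the genes called higher with KO. With CBE its log2 fold change was −0.51 (SE 0.318, edgeR adjusted p = 0.397). The KO effect minus the CBE effect was 2.31 (SE 0.422, edgeR adjusted p = 0.0014).

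NCF4 (chr22:36860988-36878017) stood at 325 and 290 CPM in AAVS1 KO against 321 and 334 in HOTSCRAMBL KO. In the CBE groups it was at 299 and 313 CPM in the control but at 164 and 203 in HOTSCRAMBL CBE. The HOTSCRAMBL CBE libraries were below the other 6. NCF4 fell by 0.75 on the log2 scale with CBE (SE 0.119, edgeR adjusted p = 8.67e-05). With KO its log2 fold change was 0.09 (95% interval −0.15 to 0.33, edgeR adjusted p = 0.733). The effects of the editors differed by 0.83 (SE 0.167, edgeR adjusted p = 0.00354).

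CYBA ranged from 95.3 to 141 CPM with the groups overlapping, with edgeR adjusted p = 0.972 with KO and 0.615 with CBE. NCF1, whose reads can be lost to its near-identical pseudogene copies, stood at 32.6 and 35.3 CPM in AAVS1 CBE against 21.5 and 22.0 in HOTSCRAMBL CBE (edgeR adjusted p = 0.159). The summed level of the 4 subunits was 481 to 482 CPM in AAVS1 KO against 527 to 590 in HOTSCRAMBL KO, and 444 to 489 in AAVS1 CBE against 314 to 357 in HOTSCRAMBL CBE. The calls of CYBB with KO and NCF4 with CBE held in every alternative run. The difference between editors lost its call for CYBB without AAVS1 CBE replicate 2 or AAVS1 KO replicate 2 (edgeR adjusted p = 0.0653 and 0.057). For NCF4 it was lost without 6 of the 8 libraries in turn, all but AAVS1 KO replicate 1 and HOTSCRAMBL CBE replicate 2, with edgeR adjusted p from 0.0564 to 0.125.

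Among the lipopolysaccharide and Toll-like receptors, TLR2, the receptor for bacterial lipopeptides, rose with KO. With CBE 0 of the 3 tested passed in edgeR or DESeq2, and 0 had an unadjusted edgeR p under 0.05. TLR2 (chr4:153684050-153706260) stood at 37.1 and 50.2 CPM in AAVS1 KO against 86.0 and 63.7 in HOTSCRAMBL KO. Its AAVS1 CBE libraries, at 68.1 and 47.8 CPM, reached the same range, and HOTSCRAMBL CBE was at 61.5 and 45.1. The log2 fold change with KO was 0.77 (SE 0.228, edgeR adjusted p = 0.0338), the weakest call with KO. It was lost without any of AAVS1 KO replicate 1, either HOTSCRAMBL KO replicate or any CBE library, with edgeR adjusted p from 0.0655 to 0.742. It also missed the threshold without TMM scaling (edgeR adjusted p = 0.0989). In the lines labelled MOLM13 and OCI-AML4 the log2 ratio of TLR2 with KO was 1.19 and 0.34, computed on CPM + 1.

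TLR4, the lipopolysaccharide receptor, was at 2.90 to 12.8 CPM, with edgeR adjusted p = 0.771 with KO and 0.374 with CBE. CD14 was counted in 3 libraries. It had 36 and 58 counts in HOTSCRAMBL KO, 10 and 0 in AAVS1 KO and 0 in all 4 CBE libraries (edgeR adjusted p with KO = 0.249). TLR8, an endosomal receptor for RNA, had 32 counts in AAVS1 KO replicate 1 and 0 elsewhere.

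Of the 6 tested lectin and scavenger receptors, edgeR called 2 lower with CBE and 0 with KO, where 3 had an unadjusted p under 0.05 and DESeq2 called 1 lower, CD93. CD93, a C-type lectin-like receptor of myeloid and endothelial cells, had 463 and 48 counts in AAVS1 CBE against 2 and 0 in HOTSCRAMBL CBE. The control libraries differed widely from each other, yet both were above the edited ones. Summed over each group and set against library totals, the ratio was 0.00356 (95% exact interval 0.00043 to 0.0129, counting error only). Both reads of a pair were counted, so counts are not independent and this interval is too narrow. Without AAVS1 CBE replicate 1, which holds most of the control counts, the ratio was 0.0173. The fitted log2 fold change was −7.85 (SE 1.58, edgeR adjusted p = 0.00134), a value that depends on the prior count. CD93 (chr20:23079360-23086324) also had 162 and 122 counts in AAVS1 KO against 0 and 16 in HOTSCRAMBL KO (edgeR adjusted p = 0.0728). Without AAVS1 CBE replicate 1 the fitted change was −5.64 and the CBE call was lost (edgeR adjusted p = 0.386), and likewise without HOTSCRAMBL CBE replicate 1 (edgeR adjusted p = 0.384).

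CLEC12A, an inhibitory C-type lectin used as a marker of leukaemic myeloid cells, stood at 2.82 and 10.0 CPM in AAVS1 CBE against 0.499 and 1.97 in HOTSCRAMBL CBE. It fell by 2.41 on the log2 scale (SE 0.758, edgeR adjusted p = 0.0447). In AAVS1 KO it was at 2.16 and 3.52 CPM and in HOTSCRAMBL KO at 7.04 and 10.0 (edgeR adjusted p = 0.146). The KO effect minus the CBE effect was 3.98 (SE 0.992, edgeR adjusted p = 0.0221). The CBE call was lost when any 1 of the 8 libraries was left out, with edgeR adjusted p from 0.0549 to 0.562. It was also lost without the filter on low counts, without the replicate block and with edgeR's older method (edgeR adjusted p = 0.0527, 0.0723 and 0.0598). The difference between editors was also lost with any 1 library left out, with edgeR adjusted p from 0.0561 to 0.332. CLEC12A (chr12:9951316-9995694) shares 4.55% of its exon bases with genes on the opposite strand.

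CD36, a scavenger receptor for oxidised lipoproteins, had 119 and 82 counts in AAVS1 KO against 17 and 6 in HOTSCRAMBL KO (edgeR adjusted p = 0.141). In CBE the groups overlapped, at 95 and 154 counts against 37 and 100. CLEC7A, the beta-glucan receptor, had 4 and 16 counts in AAVS1 CBE against 90 and 82 in HOTSCRAMBL CBE (edgeR adjusted p = 0.0904), and was called higher by DESeq2. CLEC5A, an activating lectin, had 0 to 50 counts per library. CD68, a lysosomal protein of macrophages, had 36 and 32 counts in HOTSCRAMBL CBE and 0 to 8 in the other libraries (edgeR adjusted p = 0.257). Other genes overlap 85.6% of its exon bases, and reads that touch more than 1 gene were left out. CD163 had 10 counts in AAVS1 CBE replicate 2 and 0 elsewhere.

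Of the receptors for chemoattractants and the amplifying receptor TREM1, 0 of the 2 tested passed in either contrast in edgeR or DESeq2, with 1 unadjusted edgeR p under 0.05 with KO and 0 with CBE. TREM1, which signals through TYROBP, was at 13.2 and 13.7 CPM in AAVS1 KO against 19.8 and 27.6 in HOTSCRAMBL KO (edgeR adjusted p = 0.199). C5AR1, the receptor for complement C5a, had 33 and 28 counts in AAVS1 KO against 0 and 1 in HOTSCRAMBL KO (edgeR adjusted p = 0.348). In CBE it had 38 and 0 counts in the control and 104 and 44 in HOTSCRAMBL CBE (edgeR adjusted p = 0.336). FPR1, the formyl peptide receptor, had 8 counts in AAVS1 CBE replicate 1, 2 in HOTSCRAMBL KO replicate 1 and 0 elsewhere.

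The Fc receptors and their ITAM adaptors gave 0 calls in either contrast among the 4 tested, in edgeR or DESeq2, and 0 unadjusted edgeR p-values under 0.05. TYROBP, the adaptor DAP12, was at 16.8 to 25.2 CPM in AAVS1 KO against 30.0 to 31.9 in HOTSCRAMBL KO (edgeR adjusted p = 0.380). FCER1G, the common gamma chain, was at 0 to 3.84 CPM over the 8 libraries. FCGR1A, the high-affinity IgG receptor, ranged from 5.30 to 9.08 CPM, and FCGR2A, an activating low-affinity receptor, from 8.72 to 26.1. FCGR2B, the inhibitory Fc receptor, had 0 to 12 counts. FCGR1A, FCGR2A and FCGR2B have near-identical copies in the genome, so their levels are uncertain.

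Inhibitory and paired receptors carry ITIM motifs or have activating twins. LILRB2, a leukocyte receptor for HLA class I, was the 1 gene of these 8 that passed, with CBE. With KO 0 passed in edgeR or DESeq2, and 2 had an unadjusted edgeR p under 0.05. LILRB2 (chr19:54273812-54281184) stood at 9.18 and 15.2 CPM in AAVS1 CBE against 0.333 and 2.20 in HOTSCRAMBL CBE, and fell by 3.41 on the log2 scale (SE 0.681, edgeR adjusted p = 0.00121). In AAVS1 KO it was at 5.41 and 4.96 CPM and in HOTSCRAMBL KO at 9.49 and 6.03 (edgeR adjusted p = 0.676). The HOTSCRAMBL CBE libraries were thus the lowest of the 8, and AAVS1 CBE replicate 2 was the highest. The KO effect minus the CBE effect was 3.96 (SE 0.957, edgeR adjusted p = 0.0176).

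For LILRB2 the CBE call was lost without AAVS1 CBE replicate 2 or HOTSCRAMBL CBE replicate 1 (edgeR adjusted p = 0.0678 and 0.170). The difference between editors was lost with any 1 library other than HOTSCRAMBL KO replicate 2 left out, with edgeR adjusted p from 0.0561 to 0.257. LILRB1, LILRB3, LILRB4 and LILRA2 are close relatives in the same cluster on chromosome 19, and similar sequence can move reads between them. LILRB4, a receptor of monocytic leukaemia cells, was at 85.0 and 86.6 CPM in AAVS1 KO against 108 and 104 in HOTSCRAMBL KO, and 86.3 and 96.9 in AAVS1 CBE against 77.8 and 77.9 in HOTSCRAMBL CBE. Its edgeR adjusted p was 0.315 with KO and 0.456 with CBE. LILRB1 was at 5.94 to 15.4 CPM and LILRB3 at 0.277 to 7.04, both with overlapping groups with KO. LILRA2, an activating member of the family, was at 8.47 and 9.12 CPM in AAVS1 KO against 5.05 and 6.79 in HOTSCRAMBL KO, and at 11.2 and 6.36 in AAVS1 CBE against 18.9 and 11.6 in HOTSCRAMBL CBE. Its groups did not overlap in either contrast, and neither passed (edgeR adjusted p = 0.652 with KO and 0.241 with CBE).

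CD33 and SIRPA, the most abundant of these receptors, passed with neither editor. CD33 was at 196 and 181 CPM in AAVS1 KO against 168 and 135 in HOTSCRAMBL KO, and 189 and 186 in AAVS1 CBE against 149 and 149 in HOTSCRAMBL CBE. The HOTSCRAMBL libraries were lower in both contrasts, with edgeR adjusted p = 0.165 with KO and 0.115 with CBE. SIRPA, which binds the signal CD47 and restrains phagocytosis, was at 122 and 99.8 CPM in AAVS1 CBE against 150 and 148 in HOTSCRAMBL CBE (edgeR adjusted p = 0.0628). SIRPB1, its activating relative, was at 67.3 and 70.0 CPM in AAVS1 KO against 86.0 and 95.4 in HOTSCRAMBL KO (edgeR adjusted p = 0.191). SIRPA and SIRPB1 have similar sequences, so their split is uncertain.

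Of the other surface and maturation genes, MS4A6A, AIF1 and MNDA rose with KO, while CD4 rose and MS4A6A fell with CBE. MS4A6A encodes a membrane protein with several spans that is found on monocytes and macrophages. MS4A6A (chr11:60172015-60184666) stood at 42.5 and 30.5 CPM in AAVS1 KO against 71.8 and 76.2 in HOTSCRAMBL KO. It was at 39.99 and 46.4 CPM in AAVS1 CBE against 16.5 and 20.4 in HOTSCRAMBL CBE. The 4 control libraries lay together between the 2 edited groups. Its log2 fold change was 1.02 with KO (SE 0.228, edgeR adjusted p = 0.00383) and −1.24 with CBE (SE 0.259, edgeR adjusted p = 0.00186). MS4A6A was the 1 gene of the list that passed in opposite directions, which 45 of all 24057 genes (0.187%) did with KO higher and CBE lower.

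For MS4A6A the KO effect minus the CBE effect was 2.26 (SE 0.346, edgeR adjusted p = 0.00018), a call that held in every alternative run. Within the lines labelled MOLM13 and OCI-AML4 the log2 ratio of CPM + 1 was 0.74 and 1.29 with KO and −1.23 and −1.15 with CBE. The calls with each editor depended on single libraries. With KO the call was lost without AAVS1 KO replicate 2 or HOTSCRAMBL KO replicate 1 or 2 (edgeR adjusted p = 0.228, 0.0654 and 0.0965). With CBE it was lost without AAVS1 CBE replicate 2 or HOTSCRAMBL CBE replicate 1 (edgeR adjusted p = 0.0717 and 0.181).

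AIF1 (chr6:31615217-31617021) stood at 35.4 and 29.9 CPM in AAVS1 KO against 76.1 and 53.3 in HOTSCRAMBL KO, a log2 change of 0.98 (SE 0.233, edgeR adjusted p = 0.00655). With CBE it was at 26.1 and 26.0 CPM in the control and 41.5 and 40.2 in HOTSCRAMBL CBE (edgeR adjusted p = 0.101). The HOTSCRAMBL libraries were above their controls with both editors. The KO call was lost without AAVS1 KO replicate 1 or 2 or HOTSCRAMBL KO replicate 1 (edgeR adjusted p = 0.147, 0.112 and 0.220). MNDA, a nuclear antigen of myeloid cells from the interferon-inducible family, stood at 7.92 and 4.08 CPM in AAVS1 KO against 16.5 and 22.5 in HOTSCRAMBL KO. MNDA (chr1:158831351-158849506) rose by 1.70 on the log2 scale (SE 0.458, edgeR adjusted p = 0.0174). In the CBE libraries MNDA was at 5.22 and 6.96 CPM in the control and 3.85 and 6.38 in HOTSCRAMBL CBE (edgeR adjusted p = 0.830). Its KO call was lost without AAVS1 KO replicate 2 or HOTSCRAMBL KO replicate 1 or 2 (edgeR adjusted p = 0.445, 0.096 and 0.232).

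CD4, a co-receptor of helper T cells that monocytes also carry, stood at 49.4 and 51.2 CPM in AAVS1 CBE against 101 and 90.1 in HOTSCRAMBL CBE. CD4 (chr12:6786858-6820799) rose by 0.93 on the log2 scale (SE 0.176, edgeR adjusted p = 0.000657). In AAVS1 KO it was at 58.6 and 63.2 CPM and in HOTSCRAMBL KO at 54.3 and 65.0, a log2 change of −0.02 (95% interval −0.42 to 0.38, edgeR adjusted p = 0.967). The HOTSCRAMBL CBE libraries were the highest of the 8. The KO effect minus the CBE effect was −0.96 (SE 0.267, edgeR adjusted p = 0.0451). With CBE the call was lost without AAVS1 CBE replicate 1 or HOTSCRAMBL CBE replicate 1 (edgeR adjusted p = 0.059 and 0.119). The difference between editors was lost with any 1 of the 8 libraries left out, with edgeR adjusted p from 0.0892 to 0.336. It was also lost with DESeq2's size factors and without the replicate block (edgeR adjusted p = 0.0584 and 0.0849).

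The remaining genes of this group had few counts. VCAN had 0 and 0 counts in AAVS1 KO against 40 and 30 in HOTSCRAMBL KO, but also 10 and 38 in AAVS1 CBE against 0 and 86 in HOTSCRAMBL CBE (edgeR adjusted p = 0.230 with KO and 0.743 with CBE). DESeq2 called VCAN higher with KO. ANPEP, the aminopeptidase CD13, had 50 and 2 counts in AAVS1 KO, 0 in both HOTSCRAMBL KO libraries, and 42 and 0 in AAVS1 CBE against 38 and 4 in HOTSCRAMBL CBE. FCN1 had 18 and 3 counts in AAVS1 KO, 0 in both HOTSCRAMBL KO libraries, and 16 and 8 in AAVS1 CBE against 34 and 0 in HOTSCRAMBL CBE. CD86, a costimulatory ligand for T cells, was at 2.02 to 7.29 CPM. In edgeR, differences between groups were not detectable for these 4 genes at this depth.

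**Figure D3:**
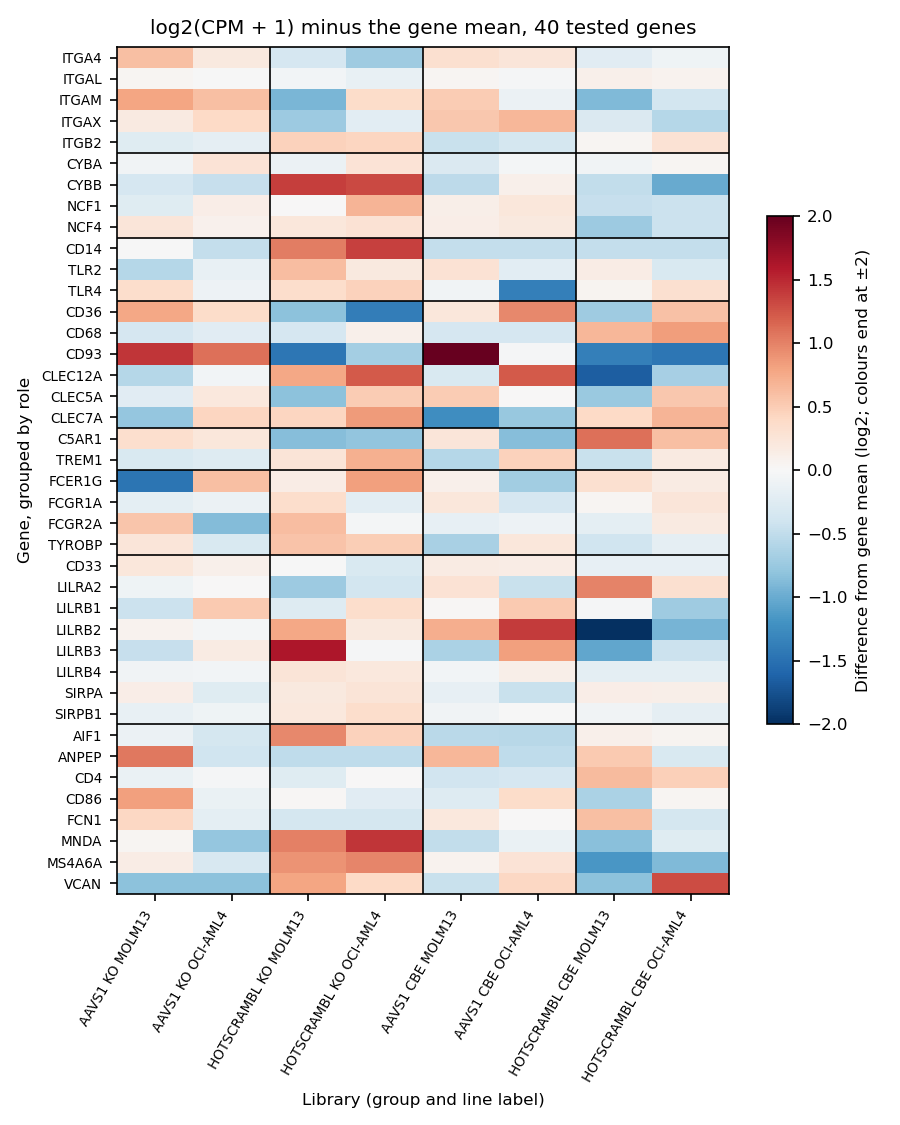
Level of the 40 tested genes in the 8 libraries as log2(CPM + 1) minus the gene's mean, in colours from blue (lower) to red (higher) that end at ±2, with genes grouped by role. CYBB, MNDA and MS4A6A are red in both HOTSCRAMBL KO libraries, and MS4A6A and LILRB2 are blue in both HOTSCRAMBL CBE libraries.

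The HOTSCRAMBL effect differed between the editors for 6 of the 40 genes (15%), beside 3.19% of all genes tested (1.74% higher and 1.45% lower). The KO effect was above the CBE effect for MS4A6A, CYBB, NCF4, LILRB2 and CLEC12A, and below it for CD4. The 5 genes reached this difference in separate ways: CYBB by a rise with KO, NCF4 and LILRB2 by a fall with CBE, MS4A6A by both, and CLEC12A by a fall with CBE beside higher values with KO that did not pass. The contrasts with KO and CBE have separate controls. The log2 change of AAVS1 KO against AAVS1 CBE was −1.21 for LILRB2 and −1.15 for CLEC12A, and neither passed. For MS4A6A, CYBB, NCF4 and CD4 it was −0.23, −0.20, 0.01 and 0.28. Of the 40 genes, 27 passed with neither KO nor CBE, beside 85.8% of all genes tested. ITGB2 was higher with both editors and ITGAX lower with both, beside 1.65% and 1.41% of all genes. With any 1 library left out, 1 to 3 genes passed. It was 1 gene without AAVS1 KO replicate 2 or AAVS1 CBE replicate 2, 2 genes without AAVS1 CBE replicate 1, HOTSCRAMBL CBE replicate 1 or HOTSCRAMBL KO replicate 1, and 3 without each of the remaining libraries.

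**Figure D4:**
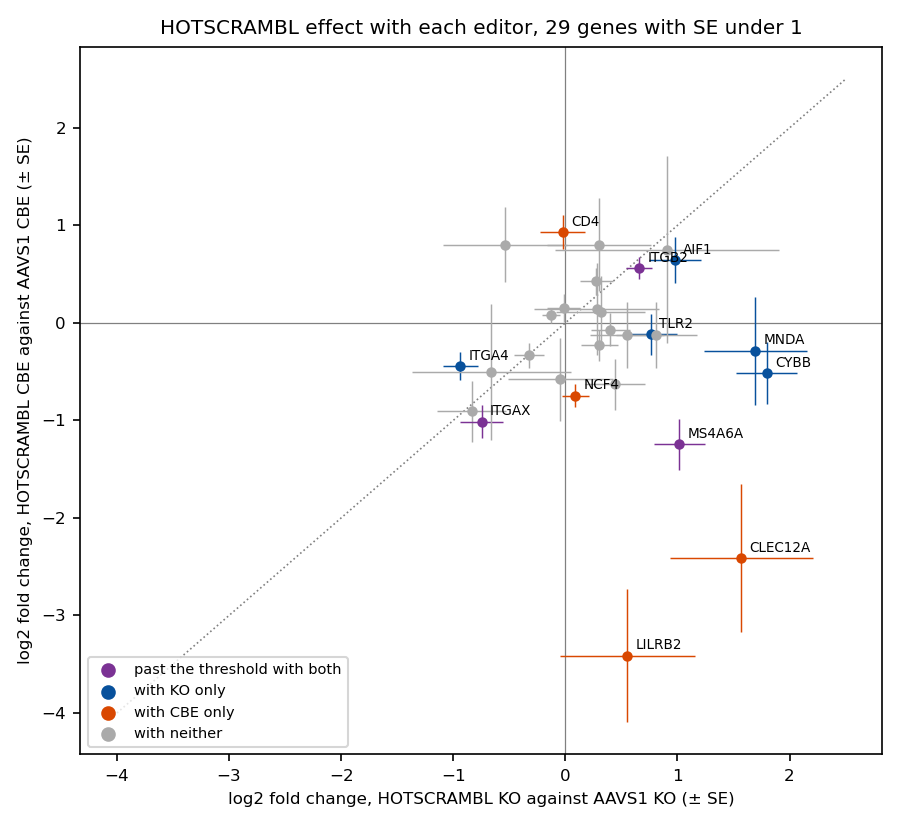
Log2 fold change of HOTSCRAMBL KO against AAVS1 KO (horizontal) and of HOTSCRAMBL CBE against AAVS1 CBE (vertical) for the 29 genes whose standard errors were under 1, with bars for the SE and a dotted line of equal effect. CYBB lies right of the others at 1.80 and −0.51, ITGB2 and AIF1 lie upper right, ITGAX lower left and MS4A6A lower right.

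HOTSCRAMBL and AAVS1 libraries did not overlap for 26 of the 40 genes with KO (65%: 15 higher, 11 lower), beside 44.8% of all genes tested. With CBE they did not overlap for 23 (57.5%: 11 higher, 12 lower), beside 46.4%. Between the controls, AAVS1 KO against AAVS1 CBE, 0 of the 40 genes passed in edgeR or in DESeq2, 1 had an unadjusted edgeR p under 0.05, and 0% of all genes passed in edgeR. Between the libraries labelled MOLM13 and OCI-AML4, 0 passed in edgeR or DESeq2 and 5 had an unadjusted edgeR p under 0.05, beside 0.495% of all genes called (0.237% higher and 0.258% lower). Over the 40 genes the median log2 ratio of CPM + 1 in the libraries labelled MOLM13 and OCI-AML4 was 0.11 and 0.25 with KO and −0.09 and −0.14 with CBE.

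Genes that work with these receptors were followed as lists, whose counts stand beside the same 8.76% of all genes called with KO and 8.83% with CBE. Of 10 tested genes of Toll-like receptor signalling, 0 passed with KO in edgeR or DESeq2, with 0 unadjusted edgeR p-values under 0.05, and 1 passed with CBE. That gene, UNC93B1, a chaperone that carries endosomal Toll-like receptors, fell from 120 and 150 CPM in AAVS1 CBE to 70.9 and 75.6 in HOTSCRAMBL CBE (a log2 change of −0.87 with SE 0.149, edgeR adjusted p = 0.000209). The KO effect of UNC93B1 minus its CBE effect was 1.00 (SE 0.213, edgeR adjusted p = 0.00598), and this call was lost without AAVS1 CBE replicate 2, HOTSCRAMBL KO replicate 1, or either replicate of AAVS1 KO or HOTSCRAMBL CBE (edgeR adjusted p from 0.0672 to 0.110). LY96, which lets TLR4 bind lipopolysaccharide, had 0 counts in all 8 libraries.

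Of the 12 tested genes of ITAM and ITIM signalling, 4 were higher and 1 lower with KO, beside 4.51% and 4.25% of all genes, and 1 was higher and 3 lower with CBE, beside 4.56% and 4.27%. The SRC-family kinase FGR stood at 51.0 and 45.7 CPM in AAVS1 CBE against 11.6 and 10.0 in HOTSCRAMBL CBE (a log2 change of −2.16 with SE 0.268, edgeR adjusted p = 2.3e-06). In the KO groups it was at 60.4 and 50.0 CPM and 67.2 and 70.4, and the effects of the editors differed by 2.48 (SE 0.342, edgeR adjusted p = 4.05e-05). PTPN6, the phosphatase recruited by ITIM motifs, rose with CBE (a log2 change of 0.77 with SE 0.100, edgeR adjusted p = 5.8e-06) and with KO (0.49, SE 0.102, edgeR adjusted p = 0.00192). The editors differed by −0.28 for PTPN6 (edgeR adjusted p = 0.394). It was also lower in the libraries labelled MOLM13 than in those labelled OCI-AML4 (a log2 change of −0.36 with SE 0.0715, edgeR adjusted p = 0.0116). The KO call of PTPN6 was lost without replicate 2 of AAVS1 KO or HOTSCRAMBL KO, without the replicate block and on the 4 KO libraries alone (edgeR adjusted p = 0.166, 0.185, 0.0519 and 0.0523). Its call between the labelled lines was lost without any 1 library of AAVS1 KO, AAVS1 CBE or HOTSCRAMBL KO (edgeR adjusted p from 0.188 to 0.399). LCP2, the adaptor SLP-76, rose with KO by 0.94 on the log2 scale (SE 0.131, edgeR adjusted p = 1.27e-05). INPP5D, the lipid phosphatase SHIP1, fell by 0.60 with KO (SE 0.103, edgeR adjusted p = 0.000204).

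Among 9 partners of integrins, 1 was lower with KO, and 1 was higher and 1 lower with CBE. RASGRP2, an exchange factor that activates RAP1 upstream of integrins, stood at 459 and 411 CPM in AAVS1 KO against 159 and 158 in HOTSCRAMBL KO. It fell by 1.45 on the log2 scale with KO (SE 0.118, edgeR adjusted p = 1.03e-09) and by 0.49 with CBE (SE 0.107, edgeR adjusted p = 0.00302). The editors differed by −0.97 (SE 0.159, edgeR adjusted p = 0.000465), a call kept in all 15 alternatives run for it. The CBE call was lost without AAVS1 CBE replicate 1 or HOTSCRAMBL CBE replicate 1 and on the 4 CBE libraries alone (edgeR adjusted p = 0.154, 0.231 and 0.082). TLN1, talin, which links integrins to actin, rose by 0.39 with CBE (SE 0.107, edgeR adjusted p = 0.0198). That call was lost with any 1 library of AAVS1 KO, AAVS1 CBE or HOTSCRAMBL CBE left out (edgeR adjusted p from 0.0583 to 0.345), without TMM scaling (edgeR adjusted p = 0.170) and on the 4 CBE libraries alone (edgeR adjusted p = 0.110).

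Of the 4 oxidase partners, CYBC1, a chaperone of the CYBB and CYBA core, fell by 0.76 with KO (SE 0.138, edgeR adjusted p = 0.000393), the contrast in which CYBB rose. RAC2, the GTPase of the oxidase, rose by 0.82 with CBE (SE 0.150, edgeR adjusted p = 0.000465), the contrast in which NCF4 fell, and lost its call without HOTSCRAMBL CBE replicate 1 (edgeR adjusted p = 0.0977). Of 11 tested other paired receptors 0 passed with KO or CBE in edgeR, where 2 and 1 had an unadjusted p under 0.05. DESeq2 called 1 higher with KO, CD47, and 1 lower with CBE, CD300LF. In edgeR CD300LF, an inhibitory receptor, differed between editors by 1.12 (SE 0.294, edgeR adjusted p = 0.0315). That call was lost with any 1 library left out, with edgeR adjusted p from 0.0587 to 0.340.

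The labelled cell type was checked with markers of myeloid leukaemia cells, of which 9 of 10 were tested. Their summed level was 1693 to 1748 CPM in AAVS1 KO against 2211 to 2528 in HOTSCRAMBL KO, and 1638 to 1717 in AAVS1 CBE against 1681 to 1767 in HOTSCRAMBL CBE. In the KO groups, LYZ went from a mean of 130 to 604 CPM and LAPTM5 from 142 to 441. The list did not rise as a whole: of the 9 tested, 4 had a positive fold change with KO and 5 a negative one. KIT and CD34, markers of progenitors, had 0 counts in 6 and 5 of the 8 libraries, and none of the 10 was at 0 in all 8. With KO, edgeR called 3 higher and 0 lower, beside 4.51% and 4.25% of all genes. They were led by LYZ, lysozyme, which rose by 2.20 on the log2 scale (SE 0.125, edgeR adjusted p = 9.41e-13), and LAPTM5, a lysosomal membrane protein (1.64, SE 0.120, edgeR adjusted p = 1.11e-10). LAPTM5 was also lower in the libraries labelled MOLM13 than in those labelled OCI-AML4 (−0.40, SE 0.0833, edgeR adjusted p = 0.0168). The other was CSF1R, the receptor of macrophage colony-stimulating factor (0.69, SE 0.192, edgeR adjusted p = 0.0227), a call lost in 7 of 16 alternatives, among them no TMM scaling. DESeq2 called the same number higher and also 1 lower, MPO, myeloperoxidase. MPO stood at 54.1 and 47.0 CPM in AAVS1 KO against 27.8 and 32.1 in HOTSCRAMBL KO (edgeR adjusted p = 0.0696). LYZ differed between the editors by 1.97 (SE 0.180, edgeR adjusted p = 8.25e-08) and CSF1R by 1.22 (SE 0.272, edgeR adjusted p = 0.0093). This difference of CSF1R lost its call without AAVS1 CBE replicate 1 or 2, AAVS1 KO replicate 2, HOTSCRAMBL CBE replicate 1 or HOTSCRAMBL KO replicate 2. With CBE, 2 were higher and 1 lower in edgeR, beside 4.56% and 4.27% of all genes. The 2 higher were LAPTM5 (1.07, SE 0.118, edgeR adjusted p = 3.15e-07) and PTPRC, the leukocyte antigen CD45 (0.67, SE 0.160, edgeR adjusted p = 0.00647). PTPRC lost its call without AAVS1 CBE replicate 2 or HOTSCRAMBL CBE replicate 1 or 2 and on the 4 CBE libraries alone (edgeR adjusted p = 0.238, 0.178, 0.0914 and 0.0755).

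Markers of other blood cells were low. The 7 T and NK cell markers summed to 13.5 to 22.2 CPM in AAVS1 KO against 30.2 to 31.5 in HOTSCRAMBL KO, and 15.5 to 18.0 in AAVS1 CBE against 18.7 to 26.9 in HOTSCRAMBL CBE, with CD3E and CD2 at 0 in all 8 libraries. Most of this sum was NKG7, at 21.3 and 11.4 CPM in AAVS1 KO against 25.4 and 23.2 in HOTSCRAMBL KO (edgeR adjusted p = 0.432). GNLY was at 0.784 and 2.08 CPM against 2.14 and 8.05 (edgeR adjusted p = 0.228). The sum moved with the genes higher in HOTSCRAMBL KO, and its part in those results was not tested. Sums over the 8 libraries were 6.35 to 11.4 CPM for the 5 B cell markers, 8.76 to 24.6 for the 5 erythroid markers with HBB at 0, and 12.9 to 21.7 for the 5 megakaryocyte markers with PF4 and PPBP at 0. Of the 8 tested genes of these lists 0 passed with KO or CBE in edgeR or DESeq2, and 1, a T or NK cell marker with KO, had an unadjusted edgeR p under 0.05.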

How the data were processed

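The deposited table holds raw counts per gene for 8 libraries. Per the file headers, the authors counted with featureCounts 2.0.6 on the Ensembl 112 annotation of GRCh38, without strand. Each read of a pair was counted separately, and reads placed at several positions or over several genes were left out. The aligner is not given in the sources used here. Records of 2 genes broken over several lines were rejoined, and 0 sample columns were unmatched.

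Genes passing filterByExpr (minimum count 10) entered the quasi-likelihood F-test of edgeR 4.0.16 (R 4.3.3), with TMM scaling (factors 0.929 to 1.06), robust estimation and Benjamini-Hochberg adjustment over 24057 genes at a threshold of 0.05. All 8 libraries shared 1 model of 4 groups plus the labelled line, with 3 residual degrees of freedom. The line label recurs in every group, and the replicate number pairs the samples by that label only. Deviations from the group means of same-numbered libraries correlated with r of 0.00851 to 0.0245, and of 0.0411 to 0.117 in genes above the median level. Same-numbered libraries thus shared little beyond their group. RPKM used the table's exon lengths.

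The genes and lists were chosen with earlier results of these data known. Genes of the list past the threshold with KO, CBE or in their difference are named with fold change, SE and adjusted p. In related and marker lists, the called genes with the 2 smallest p in each of these contrasts are named. Alternatives were DESeq2 1.42.0, its size factors, no TMM, no filter, no replicate block, the 4 libraries of a contrast, each library left out, and 2 chosen after seeing the data: edgeR's older quasi-likelihood method, and a fit without mitochondrial and ribosomal protein genes.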

Additional observations from a re-analysis of the deposited data

Results flagged for a closer look

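For 6 genes the HOTSCRAMBL effect differed between the editors by edgeR's test of the difference itself (KO effect minus CBE effect, log2). The difference was 2.26 for MS4A6A, 2.31 for CYBB, 0.83 for NCF4, 3.96 for LILRB2 and 3.98 for CLEC12A, and −0.96 for CD4. In the 15 alternatives run for this contrast, MS4A6A kept its call in all 15. CYBB lost it in 2, NCF4 in 6, LILRB2 in 7, CLEC12A in 8 and CD4 in 11. The shares of counts from mitochondrial and ribosomal protein genes were raised in HOTSCRAMBL libraries of both editors. Without those genes in the fit, 5 of the 6 differences passed, all but CD4 (edgeR adjusted p = 0.0533).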

How the results depend on the processing

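Directions held for every named call in every alternative. The number of listed genes called was 8 with KO, 8 with CBE and 6 for their difference. On the 4 libraries of a contrast alone it was 3 with KO and 4 with CBE, beside 3.76% and 3.16% of all genes. Leaving out 1 library gave 3 to 7 with KO, 3 to 7 with CBE and 1 to 3 for the difference, beside 2.46% to 6.12%, 2.14% to 6.90% and 0.822% to 1.36% of all genes, and 0 for the controls and for the labelled lines. Without the replicate block, that is without the pairing by line label, the number called was 7, 7 and 5, beside 7.22%, 6.82% and 2.09% of all genes. The calls of TLR2 and PTPN6 with KO were lost there (edgeR adjusted p = 0.052 and 0.0519). Also lost were those of CLEC12A and TLN1 with CBE (edgeR adjusted p = 0.0723 and 0.0848), and of CD4 and CD300LF for the difference (edgeR adjusted p = 0.0849 and 0.055). No other named call changed there. DESeq2 called 10, 9 and 6, beside 8.41%, 6.58% and 3.4% of all genes with a count, adding CD93 and VCAN with KO and CLEC7A with CBE. With edgeR's older method 11, 10 and 6 were called, beside 10.5%, 8.69% and 4.44% of all genes tested.

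The median log2 fold change of the 40 genes with KO was 0.30, 0.15 without TMM scaling and 0.089 to 0.32 with 1 library left out. With CBE it was −0.12, −0.26 without TMM scaling and −0.27 to −0.022 with 1 library left out. For the difference it was 0.24, and 0.33 in DESeq2, 0.27 with DESeq2's size factors, 0.22 without TMM scaling, 0.30 with the older method, 0.26 without mitochondrial and ribosomal protein genes, and −0.040 to 0.38 with 1 library left out, negative without HOTSCRAMBL CBE replicate 1. For the controls it was −0.046 to 0.11 and for the labelled lines −0.055 to 0.0059 with 1 library left out. The cause of these shifts was not tested. Depth limits the genes below 1 RPKM. With 2 libraries a group, 1 under each line label, effects that differ by labelled line could not be tested within a group.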
